A study of Mus musculus with 4 samples.

Results

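The miRNAs described here are 4 mouse miRNAs whose precursors do not need Drosha, the nuclear enzyme that cuts most miRNA hairpins out of their long primary transcripts. MiR-320 and miR-484 are known as Drosha-independent miRNAs, and miR-877 and miR-1224 as mirtrons. The members were chosen by probe name, leaving out star arms. Each name (mmu-miR-320, mmu-miR-484, mmu-miR-877 and mmu-miR-1224) matched 1 probe, giving 4 of the 566 mouse miRNA probes on the table. The samples were 2 liver tumours and 2 normal livers, assayed by NanoString nCounter, in which colour-coded probes are counted one by one. Per the labels' protocols, the mice were females with a floxed Nf2 gene (NF2fl/fl), the gene of merlin, whose loss releases the growth-promoting factor YAP from control by the Hippo pathway. They were given AAV2/8-Cre, a viral vector carrying Cre recombinase that deletes the gene in hepatocytes, or PBS, and livers were inspected 50 weeks later. All mice carried the floxed allele. It is not stated that the normal livers came from the mice given PBS, or that 2 samples of a group came from different animals. P-values therefore cover only the sample-to-sample spread, part or all of which may be technical. The promoter that drove Cre is not given in the sources used here.

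Most miRNAs pass through the Microprocessor, the complex of Drosha and DGCR8, before Dicer makes the mature miRNA. A mirtron is a short intron that is cut out by the spliceosome and, once debranched, folds into a hairpin that goes straight to Dicer. The precursor of miR-320 is transcribed directly as a short hairpin with a 7-methylguanosine cap, and miR-484 is likewise known as an endogenous short hairpin. The question here is how miRNAs that skip the Microprocessor differed between tumours and normal livers, set beside all the others.

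Sequences were found in RefSeq's table (build GRCm38.p6) for 3 of the 4 members. Mir877 lies on the minus strand at chr17:35960730-35960814, inside the span of Abcf1, which encodes a translation factor of the ABC family. Mir1224 lies on the plus strand at chr16:20604452-20604536, inside the span of Vwa5b2. The hairpins of both are shown for their ends: the capitals are the first 2 bases, GU, and the last 2, AG, the letters at the ends of most introns. Intron bounds were not analysed here. The hairpin of miR-1981, another mirtron described further on, is printed beside them.
miR-877 hairpin: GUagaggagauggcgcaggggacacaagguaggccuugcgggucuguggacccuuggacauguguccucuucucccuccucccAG
miR-1224 hairpin: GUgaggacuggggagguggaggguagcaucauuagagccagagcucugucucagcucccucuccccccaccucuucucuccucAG
miR-1981 hairpin: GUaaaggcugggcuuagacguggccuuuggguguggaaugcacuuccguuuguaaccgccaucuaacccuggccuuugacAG
Of 1005 hairpins in the RefSeq table, 30 (2.99%) start with GU and end with AG. Mir484, on the plus strand at chr16:14159626-14159692, lies 348 bases from the span of Marf1, and its hairpin has neither end.
miR-484 hairpin: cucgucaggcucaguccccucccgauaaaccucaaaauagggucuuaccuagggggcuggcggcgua
Mir320 lies at chr14:70443510-70443591, 39 bases from the span of Polr3d, which encodes a subunit of RNA polymerase III.

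The mature sequences show that the members with a sequence do not form a seed family. The seed, bases 2 to 8, sets most of the pairing with target messenger RNAs and is in capitals. The probe names give no arm. For the mirtrons the 5p arm is printed, which starts at the first base of the hairpin.
miR-484: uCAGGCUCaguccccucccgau
miR-877-5p: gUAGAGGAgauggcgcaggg
miR-1224-5p: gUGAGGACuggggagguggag
None of the 1738 mature sequences in the RefSeq table shared its bases 2 to 8 with these or with the 3p arms of the mirtrons. All 3 are rich in G and C, at 63.6% for miR-484, 65% for miR-877-5p and 66.7% for miR-1224-5p, against a median of 52.2% over the 1738.

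The deposited values are probe counts that the authors multiplied by 1 factor per sample, here called scaled counts. Whole counts could be recovered for every miRNA probe. The factors were 0.395 and 0.905 in the tumours and 2.09 and 2.30 in the normal livers, against 239727 and 123818 mouse miRNA counts in the tumours and 68260 and 62054 in the normal livers. The scaling also multiplied the background. The 6 negative controls, which match no RNA in the sample, averaged 7.5 and 7.67 counts in the tumours and 8.83 and 7.67 in the normal livers, and after scaling these means were 2.96 and 6.94 in the tumours against 18.4 and 17.6 in the normal livers. Detection in a sample required a count above a threshold, set 2 SD over the mean of the 6 negative controls, which was 17.6 and 14.9 counts in the tumours and 18.3 and 11.2 in the normal livers.

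In the counts themselves, 1 member, mmu-miR-1224, stood above the negative controls in every sample. It had 230 and 99 counts in the tumours and 98 and 77 in the normal livers. The mmu-miR-484 probe had 113 and 46 counts in the tumours and 16 and 19 in the normal livers. Both tumours also had larger totals of mouse miRNA counts than both normal livers. MiR-484 was detected in all samples except normal liver replicate 1. The other mirtron, mmu-miR-877, had 23 and 6 counts in the tumours and 15 and 17 in the normal livers. It was detected in 1 sample of each group, and the groups overlapped. The mmu-miR-320 probe had 19 and 9 counts in the tumours and 9 and 2 in the normal livers. It was detected only in liver tumour replicate 1, at 19 counts against a threshold of 17.6. Exact 95% Poisson intervals, which cover counting error only, ran from 201 to 262 for the highest of these counts and from 0.242 to 7.22 for the lowest. The plot of recovered counts sets each member against the detection threshold of its sample.

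**Figure D1:**
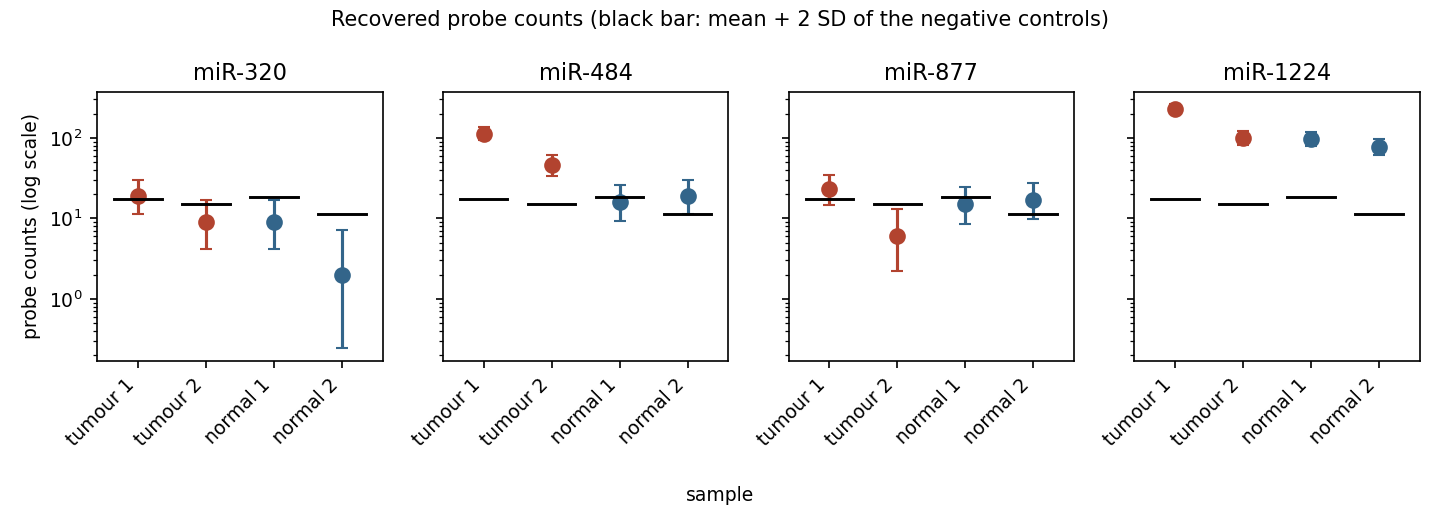
Recovered probe counts of miR-320, miR-484, miR-877 and miR-1224 in each of the 2 liver tumours and 2 normal livers, on a log axis. Points are counts, error bars are exact 95% Poisson intervals, and black bars are the detection thresholds. MiR-1224 lies above the bar in all 4 samples and miR-320 in 1.

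Differences between tumours and normal livers were tested with limma on log2(scaled count + 1), with Benjamini-Hochberg adjustment over 276 kept miRNAs. These had a mean log2 value more than 2 SD above the mean of the negative controls (a cutoff of 3.93). A member was called where its adjusted p was under 0.05. Of the 4 members 3 passed this filter, of which 2 were called lower in the tumours and 0 higher. Over all 276 kept miRNAs 46.7% were called lower and 7.97% higher, so falls were common in the deposited scaling. The median difference of the 3 kept members was -1.07, against -0.90 over the 276. Over all 4 members, tested or not, it was -0.66, against -1.20 over the 566 mouse miRNA probes. The first value includes miR-320, which is at background, and the second includes 214 probes detected in no sample, so neither is a usable size of change. On the recovered counts, the quasi-likelihood test of edgeR called 1 member higher and 1 lower (25.7% of kept miRNAs were called higher and 14.1% lower).

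MiR-1224, the mirtron of Vwa5b2, was lower in both tumours than in both normal livers in the deposited scaling. It had 90.86 and 89.60 scaled counts in the tumours, against 204 and 177 in the normal livers. The tumours lay close together and the groups did not overlap, which held for 64.5% of kept miRNAs in this direction. It averaged 90.2 ± 0.891 in the tumours and 191 ± 19.5 in the normal livers (SD, n = 2 each), a log2 difference of -1.07 (SE 0.25, 95% interval -1.68 to -0.45, limma adjusted p = 0.0134), or 2.09-fold lower. The call was lost without normal liver replicate 1 (limma adjusted p = 0.0735), without normal liver replicate 2 (0.0637) and under each of the 5 other scalings tried with limma. With the positive controls, RNAs added at fixed amounts, set equal, the difference was -0.050 (limma adjusted p = 0.951). In edgeR it was -0.22 (adjusted p = 0.437). Relative to the mean negative control of its own sample, miR-1224 stood at 30.7 and 12.9 times in the tumours. In the normal livers it stood at 11.1 and 10.0 times, so by this measure the tumours were higher. Both tumours also had larger totals of mouse miRNA counts.

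MiR-877, the mirtron of Abcf1, had the largest negative difference of the 4, with tumour values at or near background. Its scaled counts were 9.09 and 5.43 in the tumours and 31.3 and 39.0 in the normal livers. The groups did not overlap after scaling, which held for 64.5% of kept miRNAs in this direction, although the counts before scaling did. It averaged 7.26 ± 2.59 in the tumours and 35.2 ± 5.49 in the normal livers (SD, n = 2 each), a log2 difference of -2.16 (SE 0.32, 95% interval -2.93 to -1.39, limma adjusted p = 0.00339), and edgeR also called it lower (-1.31, adjusted p = 0.0247). The probes for miRNAs of mouse herpesviruses, counted in the same samples, had a median difference of -1.75 over 33 probes, and 10 of them had a lower difference than miR-877. Relative to the mean negative control of its own sample, miR-877 stood at 3.07 and 0.783 times in the tumours and 1.70 and 2.22 times in the normal livers, and the groups overlapped. With the negative control mean subtracted the difference was -2.26 but was not called (limma adjusted p = 0.142). Its size there depends on a floor, as liver tumour replicate 2, at 6 counts against a control mean of 7.67, was set to 1 count. The call was also lost without normal liver replicate 2 (limma adjusted p = 0.0511), under quantile normalization (-0.82, limma adjusted p = 0.2), with equal positive controls (-1.20, limma adjusted p = 0.0649) and with DESeq2 (-1.36, adjusted p = 0.185).

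MiR-484 was the kept member without a fall in the deposited scaling. It had 44.6 and 41.6 scaled counts in the tumours and 33.4 and 43.6 in the normal livers. The tumours lay on either side of normal liver replicate 2, so the groups overlapped. It averaged 43.1 ± 2.13 in the tumours and 38.5 ± 7.25 in the normal livers (SD, n = 2 each), a log2 difference of 0.17 (SE 0.27, 95% interval -0.48 to 0.82, limma adjusted p = 0.62) that turned to -0.017 without normal liver replicate 1. EdgeR called it higher (1.03, adjusted p = 0.0397), as did limma with equal medians (0.97, adjusted p = 0.0338). Relative to the mean negative control of its own sample it stood at 15.1 and 6 times in the tumours and 1.81 and 2.48 times in the normal livers, so its normal liver values lay near background.

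MiR-320 did not pass the filter and was not tested. It had 7.51 and 8.15 scaled counts in the tumours and 18.8 and 4.59 in the normal livers, and the normal livers lay on either side of the tumours. Detected in neither normal liver, and in the tumours below the scaled detection thresholds of the normal livers (38.2 and 25.6), it allows no fold to be given. Its level was not measurable at this depth.

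**Figure D2:**
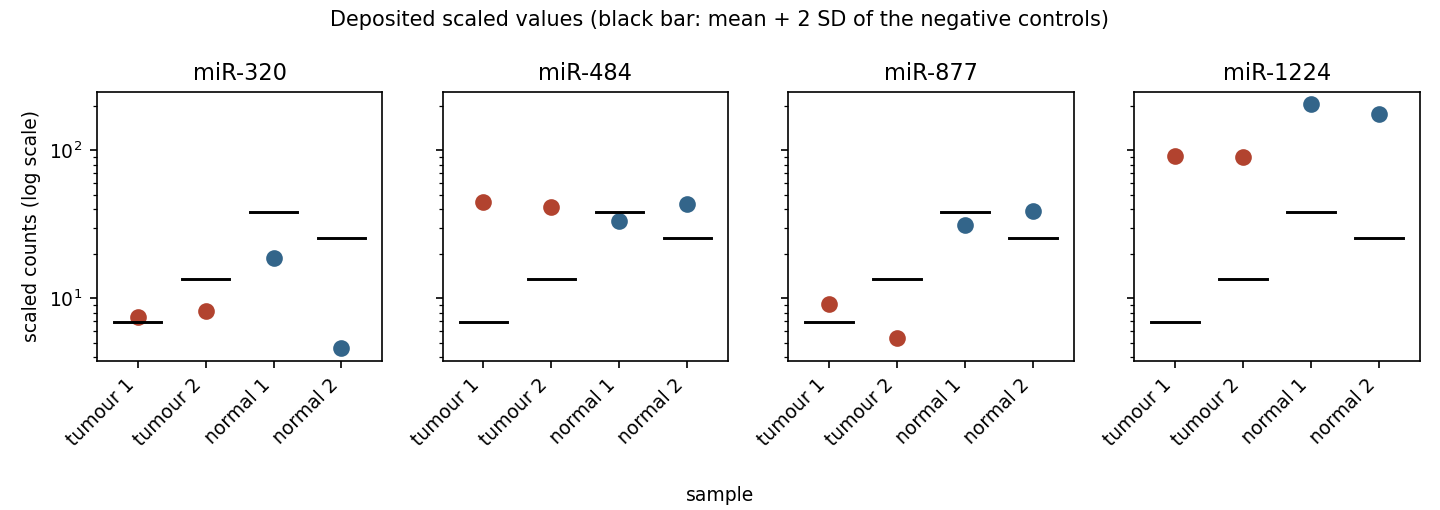
Deposited scaled counts of the same 4 miRNAs in the 2 liver tumours and 2 normal livers, on a log axis, with the scaled detection threshold of each sample as a black bar. The threshold is 6.95 and 13.5 in the tumours and 38.2 and 25.6 in the normal livers, and miR-1224 at 90.86 and 89.60 in the tumours lies well above it.

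The 3 tested members lay far apart in the range of differences. Among the kept miRNAs, 81.8% of the other 275 had a lower difference than miR-484, 44.0% a lower one than miR-1224 and 7.64% a lower one than miR-877. Level moved with the difference: the median was -1.48 over the 92 kept miRNAs of lowest mean level, which include miR-877, -0.90 over the 92 in between, which include miR-484, and -0.081 over the 92 of highest mean level, which include miR-1224. Among the 136 miRNAs detected in all samples, whose median was -0.31, miR-1224 stood lower, with 27.4% of the other 135 below it. The part of background in these ranks was not tested.

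**Figure D3:**
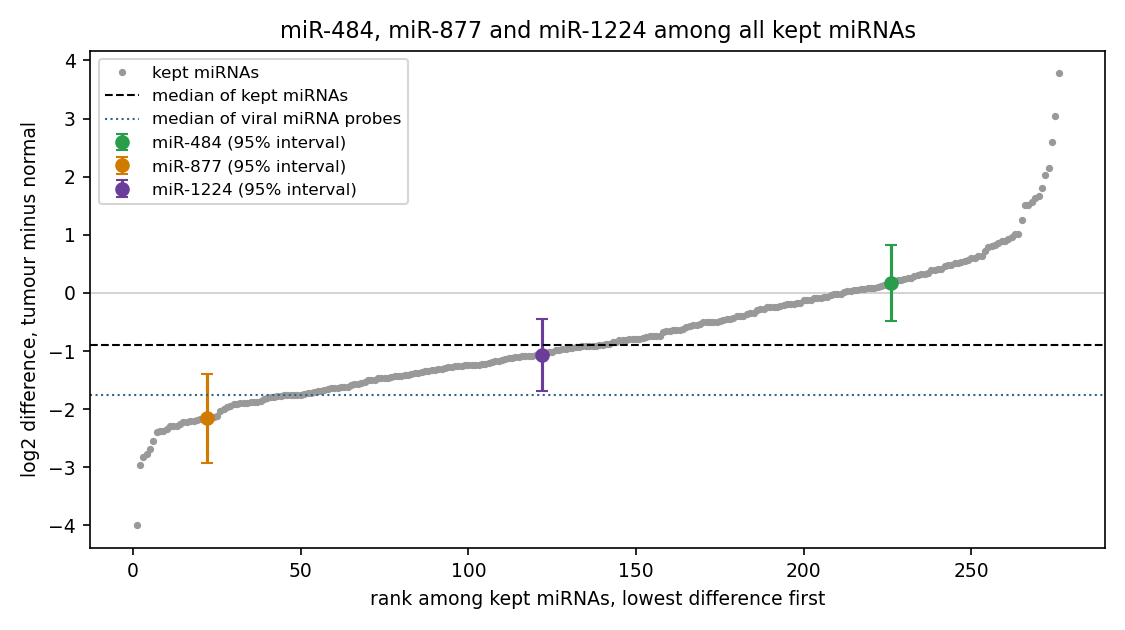
Log2 differences (tumour minus normal, deposited scaling) of the 276 kept miRNAs in rank order, with miR-484, miR-877 and miR-1224 coloured and their limma 95% intervals as error bars. The dashed line is the median of kept miRNAs, -0.90, and the dotted line the median of the 33 viral miRNA probes, -1.75. MiR-877 at -2.16 lies below both lines, miR-1224 at -1.07 between them and miR-484 at 0.17 above.

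The scaling moved the size of each difference. With limma, the difference of miR-1224 ran from -1.14 with the 4 messenger RNA probes set equal to -0.050 with the positive controls set equal. A single factor per sample shifts all miRNAs alike, so the place of a member against the median of kept miRNAs is fixed by construction under the deposited and the other 4 scalings of this kind, apart from the added 1. It was -0.17 to -0.14 for miR-1224. Over those same scalings the value measured from the median was 1.07 to 1.08 for miR-484 and -1.29 to -1.24 for miR-877. Quantile normalization, which changes values by rank, moved the members against the median, to 0.88 for miR-484, -0.80 for miR-877 and -0.84 for miR-1224.

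**Figure D4:**
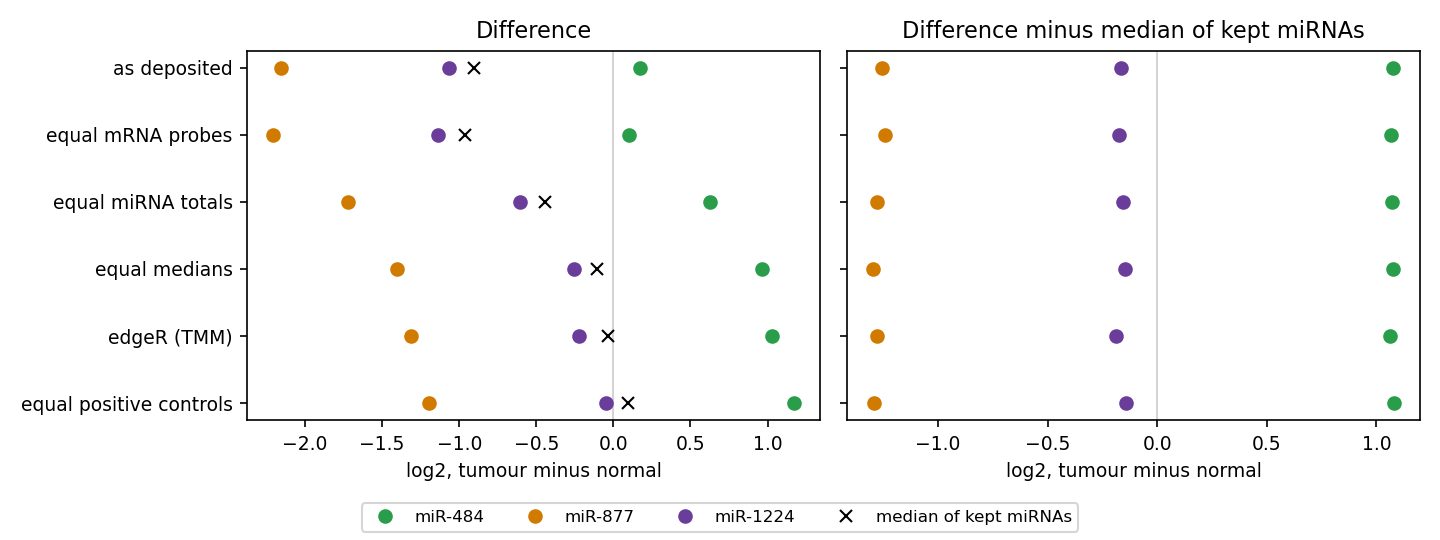
Log2 differences (tumour minus normal) of miR-484, miR-877 and miR-1224 as deposited, with messenger RNA probes, totals, medians or positive controls set equal, and in edgeR, on the left as such with the median of kept miRNAs as crosses, on the right after subtracting that median. On the left miR-1224 moves between -1.14 and -0.050, and the right side shows where each stands against the median, which a single factor per sample cannot move beyond the effect of the added 1. Quantile normalization is not drawn.

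Ratios of counts within a sample do not depend on the scaling. MiR-1224 stood at 2.04 and 2.15 times the count of miR-484 in the tumours and at 6.13 and 4.05 times in the normal livers. The ratio was lower in both tumours, a log2 difference of -1.25, but its normal liver values rest on 16 and 19 counts of miR-484, the first below the detection threshold. MiR-877 stood at 0.204 and 0.130 times the count of miR-484 in the tumours and at 0.938 and 0.895 times in the normal livers, a log2 difference of -2.49, with miR-877 undetected in liver tumour replicate 2 and both undetected in normal liver replicate 1. The ratio of miR-1224 to miR-877 was 10.0 and 16.5 in the tumours and 6.53 and 4.53 in the normal livers, a log2 difference of 1.24. None of these 3 ratios overlapped between the groups, but in 69.1% of all pairs of kept miRNAs the ratio did not overlap either. The exact two-sided permutation test gave p = 0.333 for each, the smallest that 2 samples against 2 allow, or 0.5 adjusted over the 6 pairs of members. With the negative control mean subtracted, the ratio of miR-1224 to miR-484 gave -1.96, and that of miR-1224 to miR-877 overlapped between the groups. In that setting miR-877 in liver tumour replicate 2, at 6 counts against a control mean of 7.67, was set to 1 count, so its ratios there follow from that floor. The 3 ratios to miR-320 rest on a miRNA at background, and those of miR-484 and miR-1224 to it overlapped.

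**Figure D5:**
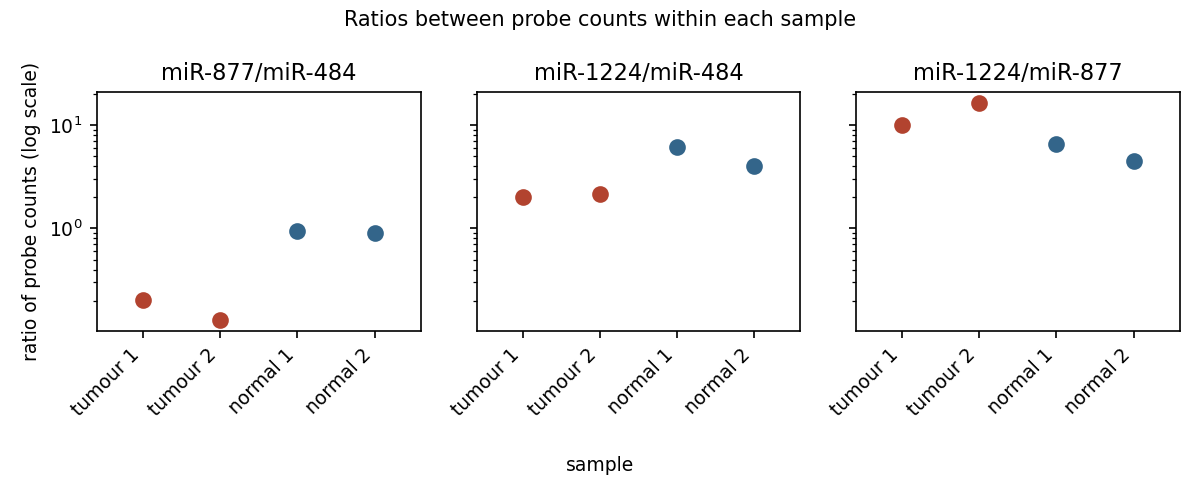
Ratios of recovered counts between miR-877 and miR-484, miR-1224 and miR-484, and miR-1224 and miR-877 in each liver tumour and normal liver, on a log axis. The ratio of miR-1224 to miR-484 is 2.04 and 2.15 in the tumours, below 6.13 and 4.05 in the normal livers.

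Other miRNAs known to bypass the Microprocessor gave few usable values. There were 5 probes, for miR-702 and miR-1981 (mirtrons), miR-1839 (from a small nucleolar RNA, both arms) and miR-712 (from a spacer of ribosomal RNA). Of these 2 were kept, and the other 3 were detected in no sample. Limma called 1 of the 2 lower and 0 higher, where it called 46.7% of all kept miRNAs lower and 7.97% higher. MiR-1981 had 9 and 5 counts in the tumours and 4 and 11 in the normal livers, miR-702 had 4 and 4 in the tumours and 1 and 4 in the normal livers, and miR-712 had 13 and 3 in the tumours and 7 and 6 in the normal livers. MiR-1839-5p was detected in all samples and was not called (35.95 and 40.7 scaled counts in the tumours, 56.3 and 34.4 in the normal livers, log2 difference -0.20, limma adjusted p = 0.625). MiR-1839-3p was called lower (6.72 and 6.34 in the tumours, 29.2 and 36.7 in the normal livers, -2.17, limma adjusted p = 0.00274). It had 17 and 7 counts in the tumours and 14 and 16 in the normal livers, which is near background as for miR-877. Like miR-877, it passed the filter only through its normal liver values.

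Intronic miRNAs that do need Drosha, which share only their intronic position with the mirtrons, held calls in both directions. Of 25 probes 22 were kept, of which limma called 3 higher and 8 lower (7.97% and 46.7% of all kept miRNAs), with a median of -0.54 against -0.90 over all kept miRNAs. EdgeR called 10 of the 22 higher and 3 lower (25.7% and 14.1% of all kept miRNAs). MiR-25 (log2 difference 1.01, limma adjusted p = 0.0196), carried by Mcm7, and miR-15b (0.90, limma adjusted p = 0.0239), carried by Smc4, had the largest rises. MiR-107 (-2.29, limma adjusted p = 0.00274), carried by the pantothenate kinase gene Pank1, and miR-101b (-1.89, limma adjusted p = 0.00339), carried by Rcl1, had the largest falls. MiR-451, which needs Drosha but is matured by Ago2 instead of Dicer, had 1317 and 1437 scaled counts in the tumours and 1091 and 902 in the normal livers. It was not called by limma (0.47, adjusted p = 0.167) and was called higher by edgeR (1.32, adjusted p = 0.00141).

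The miRNAs most like each member were found by the Euclidean distance between log2 values centred over the 4 samples. For miR-1224 they were miR-365 (distance 0.0540), miR-2146 (0.140) and miR-7b (0.203). MiR-365 had 171 and 178 scaled counts in the tumours and 396 and 342 in the normal livers. For miR-484 they were miR-16 (0.175), miR-151-5p (0.199) and miR-98 (0.200). For miR-877 they were miR-202-3p (0.1005), miR-125a-3p (0.201) and miR-668 (0.274). MiR-202-3p had 25 and 6 counts in the tumours and 16 and 17 in the normal livers, nearly those of miR-877 and as close to background. For miR-320, itself at background, the nearest were farther off, namely miR-324-5p (0.711), miR-1839-5p (0.802) and miR-214 (0.808).

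Marker miRNAs of several cell types differed between the groups, and in bulk tissue fewer cells of a type and less RNA per cell cannot be told apart. The marker calls stand beside those over all kept miRNAs, of which limma called 7.97% higher and 46.7% lower. EdgeR called 25.7% of them higher and 14.1% lower. All 3 hepatocyte markers (miR-122, miR-192 and miR-194) were called lower by limma, and 0 of 3 by edgeR. Their summed level was 14005 to 18223 scaled counts in the tumours and 29130 to 33065 in the normal livers, and all 3 were detected in every sample. All 3 bile duct markers (miR-200a, miR-200b and miR-429) were called higher by limma and by edgeR. Their summed level was 1244 to 1277 in the tumours and 148 to 177 in the normal livers. Off this list, miR-200c, detected in 1 sample, was called lower by limma (-1.31, adjusted p = 0.0238) and not by edgeR (-0.48, adjusted p = 0.379), and miR-141 was not kept. Limma called 2 of 4 stellate and smooth muscle markers higher, both arms of miR-199a, and edgeR called all 4 higher. In limma miR-143 and miR-145 stood at 0.12 and 0.14. The 4 summed to 1433 to 2398 in the tumours and 937 to 1103 in the normal livers. Of 5 leukocyte markers limma called 2 lower, and edgeR 2 higher and 1 lower (776 to 865 in the tumours, 1114 to 1453 in the normal livers). The 2 endothelial markers are the arms of 1 miRNA, miR-126. Limma called miR-126-5p lower (-0.93, adjusted p = 0.0227), and edgeR called miR-126-3p higher (0.61, adjusted p = 0.0399). The 2 arms summed to 3879 to 4116 in the tumours and 4599 to 5229 in the normal livers. Of 3 erythroid markers 0 were called by limma, against 3 called higher by edgeR. The neuron markers summed to 17.2 to 18.6 in the tumours and 48.2 to 64.7 in the normal livers. The muscle markers summed to 36.2 to 88.9 in the tumours and 71.2 to 108 in the normal livers. Both sets were low, except that in liver tumour replicate 1 miR-133a had 110 counts and miR-1 had 97. In liver tumour replicate 2 these had 5 and 19. Limma called the neuron marker miR-124 lower (-1.70, adjusted p = 0.00359), and edgeR did not. Of 3 muscle markers 0 were called by limma or edgeR. The part of cell makeup in the differences of miR-484, miR-877 and miR-1224 was not tested.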

How the data were processed

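Total RNA was assayed with the nCounter miRNA Expression Assays, per the labels' protocols. The authors deposited a signal value per probe, its count times 1 factor per sample, and left controls unscaled, as the values show. Software and the basis of the factor were not given in the sources used here. Dividing by the factor gave whole counts for 100% of values within 0.1 count. Of 618 probes, 566 were for mouse miRNAs. The main test was limma 3.58.1 (two-sided, after eBayes) on log2(value + 1). MiRNAs were kept where their mean log2 value lay over 2 SD above the mean of the 6 scaled negative controls (each averaged over samples). EdgeR 4.0.16 and DESeq2 1.42.0 were run on recovered counts. The members, lists and tests were chosen with earlier results of these data known. Named miRNAs were the members, the 3 most like each in profile, all of lists of up to 5, and otherwise the 2 largest called rises and falls. Same-numbered samples deviated from their group means with a correlation of 0.042, so the numbers were not taken as pairs. Alternatives changed the scaling, the filter, the pseudocount (0.5, 10 and 30), the background, the test and the design, and left out each sample in turn. The limma step was also run on simulated data without a constant background count. That run therefore does not cover the effect of the scaling on background.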

Additional observations from a re-analysis of the deposited data

How the results depend on the processing

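Depth is a limit: outside miR-1224, the members had 2 to 19 counts in the normal livers, near the negative controls. The direction held in every alternative run for miR-877 and miR-1224. For miR-877 the call ended under quantile normalization (-0.82), equal positive controls (-1.20), subtraction of the negative control mean (-2.26) and DESeq2 (-1.36), and without normal liver replicate 2 (-2.003), and its difference ran from -2.48 to -1.83 with each sample left out. For miR-1224 the call ended with equal medians (-0.26), quantile normalization (-0.86), equal totals (-0.60), equal positive controls (-0.050), equal messenger RNA probes (-1.14), negative control subtraction (-1.005), edgeR (-0.22) and DESeq2 (-0.22), and its difference ran from -1.17 to -0.96 with each sample left out. MiR-484 was called higher with equal medians (0.97) and in edgeR (1.03), and ran from -0.017 to 0.36 with each sample left out. The cause of these changes was not tested. With the replicate block the differences were -2.16, -1.07 and 0.17, as without it, and it changed no call of a member; the numbers are shared labels only.

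As deposited, 0 members were called higher and 2 lower, and 22 miRNAs higher and 129 lower. Equal medians gave 1 and 1 of the members and 59 and 50 of all miRNAs, edgeR 1 and 1 and 71 and 39. Members called lower were 0 under quantile normalization, equal positive controls, negative control subtraction and DESeq2, and 1 with equal totals, equal messenger RNA probes, only miRNAs detected in all samples, and a filter at the spread of single negative control values, which was added after seeing the data and left 1 member to test. All miRNAs called lower were 13 under quantile normalization, 74 with equal totals (34 higher) and 10 with equal positive controls (44 higher). Negative control subtraction gave 5 (12 higher) and DESeq2 12 (53 higher), and equal messenger RNA probes gave 95, or 34.4% (11 higher). All of these settings tested 276. Changes of the filter also changed the number tested. Without a filter 276 of 566 were called lower (48.8%). It was 50 of 136 among those detected in all samples (36.8%) and 34 of 116 with the added filter (29.3%). At an unadjusted p under 0.05, limma had 92 with quantile normalization and 94 with equal positive controls or negative control subtraction. With each sample left out, members called lower ran from 0 to 2, with 0 without normal liver replicate 2 and 1 without normal liver replicate 1, miRNAs called higher from 7 to 18 and miRNAs called lower from 47 to 127. With negative control subtraction the log2 differences of the ratios moved to -3.77 for miR-877 to miR-484 (with miR-877 set to the floor of 1 count in liver tumour replicate 2), -1.96 for miR-1224 to miR-484 and 1.80 for miR-1224 to miR-877. Over the miRNAs detected in all samples, 27.4% lay below miR-1224.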
